A study of Homo sapiens with 18 samples.

Results

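MCF10A cells carrying LATS1-directed hairpins and MCF10A cells given an ESR1 cDNA were compared directly, 3 arrays against 3, out of 18 arrays in 6 groups of the series. The arrays of each group were taken by their labels, and this pair of groups was chosen for its like ESR1 signal. In the first group, called the shLATS1+2-labelled arrays here, the lentiviral hairpins are described as aimed at LATS1 and LATS2, and the transfected plasmid was the control cDNA. In the second group, the ESR1-cDNA arrays, the lentivirus carried a non-targeting hairpin (shNT) and the plasmid carried ESR1. MCF10A is an established, non-tumour-forming human mammary epithelial line. Every group shared the rest of the treatment, which was lentiviral infection at a multiplicity of 5, puromycin at 1.5 µg/ml for 4 days, a recovery of 7 days or more, lipid transfection, and 5 days in the estrogen-containing medium M5. The hairpins were therefore stable and selected, while the cDNAs were transient. The labels do not say which promoter drives a cDNA, how many cells took it up, or whether replicates were separate cultures. The p-values therefore cover the spread between these arrays, which may be technical. The other 4 groups are used below as reference points. They are shLATS1B with control cDNA, shNT with YAP/TAZ plus ESR1 cDNA, shNT with YAP/TAZ cDNA, and shNT with control cDNA (the control arrays).

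LATS1 and LATS2 are the last kinases of the Hippo pathway. They phosphorylate YAP (encoded by YAP1) and TAZ (encoded by WWTR1), a pair of transcriptional co-activators, which keeps these out of the nucleus, and without that restraint YAP and TAZ bind TEAD factors and switch on growth and matrix genes. ESR1 encodes estrogen receptor alpha, a hormone-activated transcription factor of luminal breast cells that basal-like lines such as MCF10A normally show at low level. The comparison sets a lowered LATS1 against an added ESR1 cDNA in the same cell line.

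Each array reports log2 intensities, so a difference of 1 is a factor of 2. Repeat arrays correlated with r between 0.9966 and 0.9988 among the shLATS1+2-labelled arrays and between 0.9932 and 0.9979 among the ESR1-cDNA arrays. ESR1-cDNA array 1 stood apart from arrays 2 and 3, with root-mean-square differences of 0.237 and 0.241, where arrays 2 and 3 differed by 0.133. Among 192 small nucleolar and Cajal body RNAs it was the lowest of the 3 ESR1-cDNA arrays for 148 (77.1%), against 37.6% of the other 18212 genes. Where leaving it out changes a call or a count by much, the value without it is given beside the result. The first principal component of all 18 arrays, with 47.3% of the variance, put the shLATS1+2-labelled arrays at 14.99, 14.50 and 9.83, and the ESR1-cDNA arrays at -10.30, -17.48 and -18.16. No batch or day is given in the labels, and a batch that runs along these groups cannot be told apart from the groups.

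LATS1, the kinase both hairpin sets are aimed at, was lower in the arrays labelled for it. Its log2 intensity (probe set 8130116) was 7.67, 7.76 and 7.85 in the shLATS1+2-labelled arrays, against 8.89, 8.71 and 8.64 in the ESR1-cDNA arrays. The groups did not overlap, and the difference of -0.99 ± 0.078 (SE) was 1.98-fold with an adjusted p of 1.1e-07 (limma). It was -0.91 without ESR1-cDNA array 1. The shLATS1B arrays averaged 7.66 and the control arrays 8.86, so the ESR1-cDNA arrays lay near the control and the shLATS1+2-labelled arrays near the other hairpin. LATS2, the second kinase named in the label, read 7.84, 7.90 and 7.72 in the shLATS1+2-labelled arrays, against 7.93, 7.76 and 7.84 in the ESR1-cDNA arrays. These values overlapped, with a difference of -0.022 ± 0.063, a 95% interval of -0.16 to 0.11 and an adjusted p of 0.87 (limma), so a lower LATS2 message was not seen in arrays labelled for it. Where the probes of this set lie within LATS2 was not analysed here.

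WWTR1, the gene for TAZ, was higher with the hairpins, at 9.85, 9.85 and 9.71 in the shLATS1+2-labelled arrays, against 9.44, 9.11 and 9.07 in the ESR1-cDNA arrays. The groups did not overlap, and the difference was 0.60 ± 0.089 (SE, adjusted p = 1.1e-04, limma), or 0.72 without ESR1-cDNA array 1. Against the control mean of 9.57, WWTR1 differed by 0.23 with shLATS1+2 and by -0.37 with ESR1 cDNA. YAP1 read 10.86, 10.85 and 10.73 with shLATS1+2 and 10.78, 10.44 and 10.45 with ESR1 cDNA. Here ESR1-cDNA array 1 lay within the range of the other group while arrays 2 and 3 lay below it, and the difference was 0.25 ± 0.075 (adjusted p = 0.026, limma). The YAP1 call was lost in 6 settings (adjusted p = 0.20 with the 6 arrays alone and 0.053 with arrays centred on their medians, limma), while without ESR1-cDNA array 1 the difference was 0.36. Against the control mean of 10.84, YAP1 differed by -0.033 with shLATS1+2 and by -0.28 with ESR1 cDNA. The YAP1 gap thus lay mostly in lower ESR1-cDNA arrays. ESR1, the gene of the transfected cDNA, was chosen for its like level in both groups and is only described. It read 6.35, 6.46 and 6.39 in the shLATS1+2-labelled arrays, against 6.34, 6.52 and 6.53 in the ESR1-cDNA arrays. The groups overlapped, both above the control mean of 5.52, and the shLATS1B arrays averaged 6.37. The other group given the ESR1 plasmid, together with YAP/TAZ cDNA, averaged 6.03, below every shLATS1+2-labelled array. With bulk RNA, fewer cells with a message and less message per cell cannot be told apart.

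**Figure D1:**
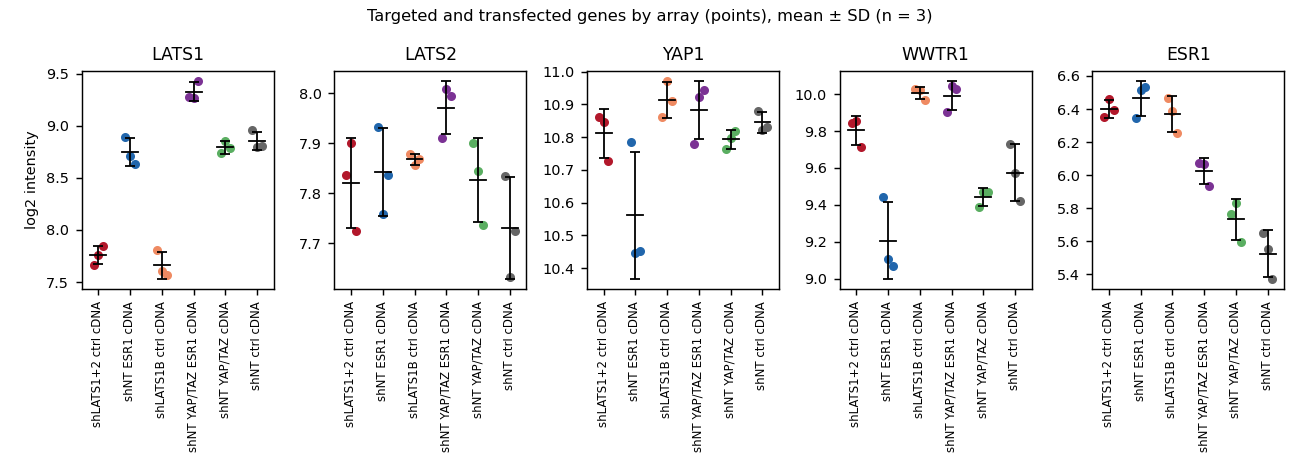
Log2 intensity of LATS1, LATS2, YAP1, WWTR1 and ESR1 in the 18 arrays (points), with the mean and SD of each group of 3 (bars). LATS1 was low in both hairpin groups. ESR1, for whose like signal the pair was chosen, averaged 6.40 in the shLATS1+2-labelled arrays and 6.47 in the ESR1-cDNA arrays.

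Of 18404 genes, 3571 (19.4%) passed an adjusted p under 0.05 (limma, Benjamini-Hochberg over all genes). With shLATS1+2, 2091 genes (11.4%) were higher than with ESR1 cDNA and 1480 (8.04%) were lower. Most differences were small. The median size was 0.35 among the genes that were higher and 0.34 among those that were lower, and 652 genes (3.54%) passed the test and reached 1.5-fold. A difference of at least 1 was seen for 95 genes that were higher and 90 that were lower. The 2 groups' arrays did not overlap for 5001 genes (27.2%), of which 3284 were also called (17.8% of all genes). Without ESR1-cDNA array 1, 4724 genes passed, among them 3190 of the 3571. The median difference over all genes was -0.01, the value to hold beside the list medians below.

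The genes with the largest rises in the shLATS1+2-labelled arrays included enzymes that break down hormone ligands, membrane receptors and channels, and epithelial factors. CYP24A1, which inactivates vitamin D, led with 8.28, 8.37 and 8.51 in the shLATS1+2-labelled arrays, against 4.89, 5.00 and 4.90 in the ESR1-cDNA arrays. Its ESR1-cDNA arrays were at the dim end of the array, so the rise is given as at least 9.06-fold, with an adjusted p of 4.6e-13 (limma). CYP26B1, which degrades retinoic acid, read 8.07, 8.14 and 7.96 with shLATS1+2 and 5.82, 5.72 and 5.76 with ESR1 cDNA. The 2 groups were apart in each case, and CYP26B1 was 4.88-fold higher.

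AQP3, a water and glycerol channel of epithelia, read 9.85, 9.63 and 9.78 in the shLATS1+2-labelled arrays, against 6.90, 7.04 and 7.15 in the ESR1-cDNA arrays, a 6.6-fold rise with no overlap. TNFAIP2, a gene induced by tumour necrosis factor, read 10.41, 10.31 and 10.30 with shLATS1+2 and 8.02, 7.70 and 7.58 with ESR1 cDNA. All 3 of its shLATS1+2-labelled arrays lay more than 2 units above every ESR1-cDNA array. ELF3, an epithelial Ets-family transcription factor, read 8.90, 8.97 and 8.76 with shLATS1+2 and 6.40, 6.67 and 6.62 with ESR1 cDNA, and its groups did not overlap. CPA4, a secreted carboxypeptidase listed here among YAP/TAZ targets, read 8.68, 8.67 and 8.39 with shLATS1+2 and 6.29, 5.82 and 5.93 with ESR1 cDNA. ESR1-cDNA array 1 was the highest of its group for CPA4 and TNFAIP2 and stayed below all shLATS1+2-labelled arrays.

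Receptors, ligands and other proteins made up the rest of the 15 largest rises. The thrombin receptor F2R rose by 2.21 ± 0.094 (SE), the ERBB antagonist LRIG1 by 2.11 ± 0.10 and OLR1, a receptor for oxidised LDL, by 2.09 ± 0.14. The basal keratin KRT15 rose by 2.08 ± 0.13, and the secreted chaperone CLU by 2.03 ± 0.11. WNT7A, a Wnt ligand, rose by 1.98 ± 0.11, the calcium-binding protein CALB2 by 1.98 ± 0.10, the ubiquitin ligase subunit FBXO32 by 1.96 ± 0.058 and the glycolytic enzyme ALDOC by 1.89 ± 0.11. Among these 15 genes the folds ran from 3.72 upward and the highest adjusted p was 1.7e-08 (limma). For 13 of the 15 the control mean lay nearer to the ESR1-cDNA arrays. All 15 were called in the same direction without ESR1-cDNA array 1. OLR1 was above the control in both groups, with a control mean of 5.09 below every array of either.

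The largest falls included genes for an ion channel subunit, a transcriptional inhibitor, a G-protein regulator and a matrix protein. SCNN1G, the gamma subunit of the sodium channel ENaC, read 5.33, 5.49 and 5.55 in the shLATS1+2-labelled arrays, against 9.35, 8.91 and 9.32 in the ESR1-cDNA arrays. That is 13.3-fold lower with the hairpins, at an adjusted p of 1.4e-13 (limma), and no array of one group approached the other. ID2, which binds and blocks basic helix-loop-helix factors, read 5.22, 5.51 and 5.67 with shLATS1+2 and 8.75, 9.06 and 9.63 with ESR1 cDNA. ESR1-cDNA array 1 was the lowest of its group, the groups did not overlap, and ID2 was 12.9-fold lower. PNLIPRP3, a member of the pancreatic lipase family, read 5.03, 4.95 and 5.42 with shLATS1+2 and 8.43, 8.90 and 8.99 with ESR1 cDNA, at least 11.8-fold lower, since its shLATS1+2-labelled arrays were at the dim end.

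RGS2, which shortens signalling by G proteins, read 6.68, 6.73 and 7.21 with shLATS1+2 and 9.69, 10.37 and 10.52 with ESR1 cDNA, a 9.98-fold fall without overlap. FN1, the matrix protein fibronectin, read 6.69, 6.71 and 6.76 with shLATS1+2 and 9.96, 9.81 and 9.69 with ESR1 cDNA. The spread within each group was small for FN1, and the fall was 8.55-fold. SLC26A2, a sulfate transporter needed for proteoglycan sulfation, read 7.57, 7.67 and 7.51 with shLATS1+2 and 10.69, 10.55 and 10.47 with ESR1 cDNA, a 7.94-fold fall. The chemokine CCL20 differed by -2.36 ± 0.19 and the adhesion protein FLRT3 by -2.23 ± 0.086. ANGPTL4, a secreted lipoprotein lipase inhibitor, differed by -2.22 ± 0.050, and PI3, the protease inhibitor elafin, by -2.02 ± 0.11.

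LHFPL6, CLIC2, PLD5, the long non-coding RNA UCA1 and the acute-phase gene SAA1 completed the 15 largest falls, at -2.57, -2.32, -2.03, -2.03 and -2.01. SAA1 and SAA2 are near-identical copies, so their separate values are uncertain. The highest adjusted p of the 15 falls was 1.7e-07 (limma), and all 15 were called in the same direction without ESR1-cDNA array 1. For 5 of the 15 the control mean lay nearer to the shLATS1+2-labelled arrays. UCA1 is one, at 5.80, 5.85 and 5.83 with shLATS1+2 and 7.98, 7.55 and 8.05 with ESR1 cDNA, with a control mean of 6.07.

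**Figure D2:**
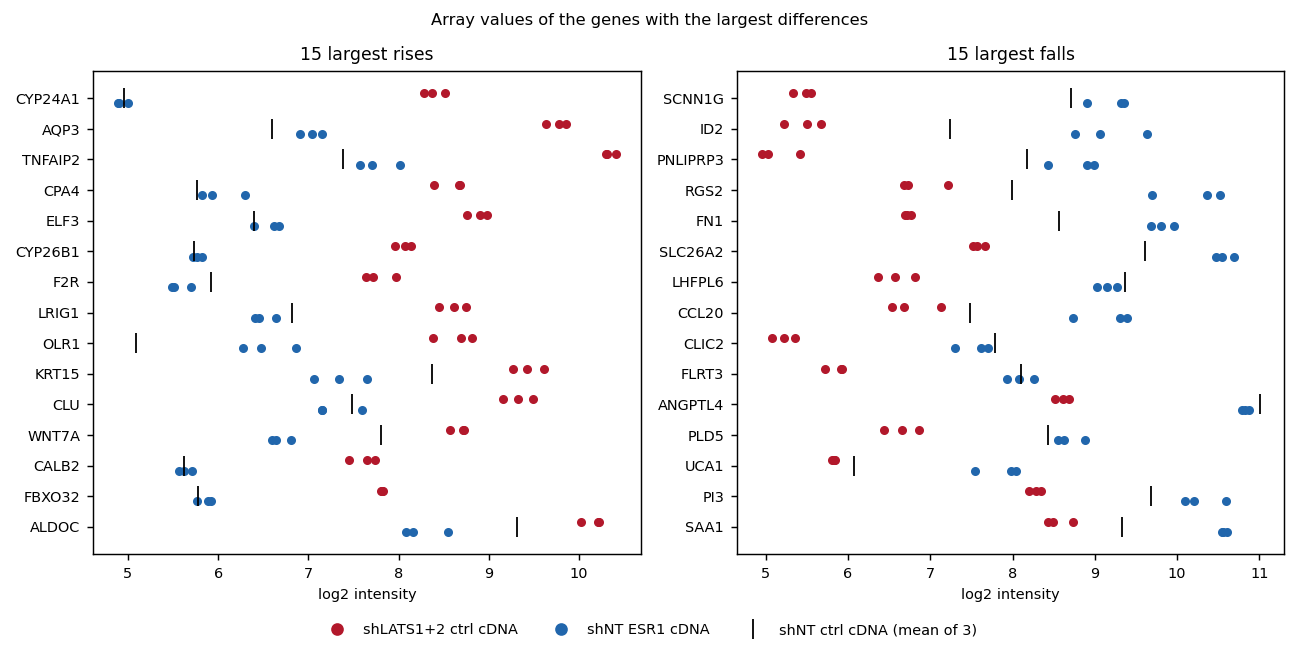
Log2 intensity of the 15 genes with the largest rises (left) and the 15 with the largest falls (right) in the 3 shLATS1+2-labelled arrays, the 3 ESR1-cDNA arrays and as the mean of the 3 control arrays (tick). The groups do not overlap for any of these genes, which were selected on that, and the control mean lies near the ESR1-cDNA arrays for most of the rises.

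Promoters are shown for the pair of largest rises and the pair of largest falls that have an entry in the RefSeq-based table (GRCh38.p14), since these 4 genes carry some of the widest gaps in the comparison. Each runs 5′ to 3′ on the gene's strand, from 250 bases before to 50 after the start, over chr9:33447544-33447843 (minus strand) for AQP3, chr14:103123211-103123510 (plus) for TNFAIP2, chr2:8681806-8682105 (plus) for ID2 and chr10:116427597-116427896 (plus) for PNLIPRP3. Capitals mark matches, on either strand, to the motifs named below.
AQP3: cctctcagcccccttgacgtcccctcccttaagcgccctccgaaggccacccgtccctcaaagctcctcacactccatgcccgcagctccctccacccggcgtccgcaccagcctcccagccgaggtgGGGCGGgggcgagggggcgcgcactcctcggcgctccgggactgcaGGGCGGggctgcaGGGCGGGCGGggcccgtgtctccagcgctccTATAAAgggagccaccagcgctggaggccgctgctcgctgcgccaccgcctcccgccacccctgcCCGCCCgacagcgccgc
TNFAIP2: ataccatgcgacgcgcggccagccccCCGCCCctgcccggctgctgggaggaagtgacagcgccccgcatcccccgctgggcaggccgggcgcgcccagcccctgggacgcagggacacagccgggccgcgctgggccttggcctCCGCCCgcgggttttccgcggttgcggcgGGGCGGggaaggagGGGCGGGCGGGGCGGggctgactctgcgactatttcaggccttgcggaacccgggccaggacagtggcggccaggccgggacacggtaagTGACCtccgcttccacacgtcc
ID2: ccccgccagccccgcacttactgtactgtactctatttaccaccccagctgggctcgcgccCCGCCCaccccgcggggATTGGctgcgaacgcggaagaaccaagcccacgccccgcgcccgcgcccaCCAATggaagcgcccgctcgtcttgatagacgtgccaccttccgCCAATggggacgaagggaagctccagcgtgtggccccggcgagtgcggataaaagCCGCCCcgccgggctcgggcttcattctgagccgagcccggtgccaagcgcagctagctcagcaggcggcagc
PNLIPRP3: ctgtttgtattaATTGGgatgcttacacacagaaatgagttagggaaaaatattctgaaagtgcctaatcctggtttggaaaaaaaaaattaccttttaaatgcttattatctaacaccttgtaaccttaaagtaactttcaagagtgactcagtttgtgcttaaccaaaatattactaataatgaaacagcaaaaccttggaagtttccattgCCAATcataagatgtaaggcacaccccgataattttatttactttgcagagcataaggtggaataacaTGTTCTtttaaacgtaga

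The capitals are the TATA box TATAAA, the CCAAT box CCAAT, the GC box GGGCGG, the estrogen receptor half-site GGTCA and the glucocorticoid receptor half-site AGAACA, any of which may overlap another match. Among 27305 promoters of the table, 12% hold TATAAA, 35.7% CCAAT, 44.6% GGGCGG, 37.7% GGTCA and 14.9% AGAACA. The promoters of the pair that was higher with shLATS1+2 hold 5 GC boxes in AQP3, with a TATA box at -32, and 6 in TNFAIP2, with 1 estrogen receptor half-site at +29. Of the pair that was lower, ID2 has 3 CCAAT boxes and 2 GC boxes. PNLIPRP3 has no GC box, 2 CCAAT boxes and 1 glucocorticoid half-site, at +33. The TEAD core GGAATG, present in 14.0% of promoters, was not found in these 4 windows. The motifs were chosen with the results known, and a match describes letters only.

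Gene lists, chosen with earlier results of these data known, were then read from the Hippo pathway outward. Each list count below is to be held beside the shares of all genes. These were 11.4% called higher, 8.04% called lower and 27.2% with groups that did not overlap. List counts without ESR1-cDNA array 1 belong beside that fit's own calls, 2803 higher and 1921 lower of 18404 genes. Of 23 Hippo kinases and adaptors, 1 was higher and 3 were lower with shLATS1+2, with a median difference of -0.025. After LATS1, the largest fall was that of the atypical cadherin FAT4 (-0.52 ± 0.060, SE), while the LIM protein AJUBA, an inhibitor of LATS, rose by 0.48 ± 0.085. The kinase TAOK2 was also called lower, at -0.29 ± 0.085, but that call was lost in 6 settings (-0.19 and an adjusted p of 0.094, limma, without ESR1-cDNA array 1). With 4 of 23 called, the list was near the 19.4% of all genes. Leaving out ESR1-cDNA array 1 gave 4 higher and 3 lower, with a median of 0.059.

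Of 10 genes for YAP/TAZ and their nuclear partners, 3 were higher and 2 lower. The TEAD cofactor VGLL3 read 7.74, 7.97 and 7.59 in the shLATS1+2-labelled arrays, against 9.46, 9.34 and 9.23 in the ESR1-cDNA arrays, a 2.98-fold fall without overlap. Of the TEAD factors, TEAD2 rose by 0.44 ± 0.057 and TEAD4 differed by -0.33 ± 0.060. The list's median was -0.038, and 0.065 without ESR1-cDNA array 1.

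Of 25 YAP/TAZ target genes, 5 were higher and 10 lower with the LATS1-directed hairpins than with ESR1 cDNA, with a median of -0.11. CPA4 was the large rise. NT5E, the ectoenzyme CD73, read 9.29, 9.42 and 9.27 in the shLATS1+2-labelled arrays, against 10.35, 10.23 and 10.23 in the ESR1-cDNA arrays, a 1.92-fold fall with no overlap. ANKRD1, a widely used YAP target, read 4.86, 4.97 and 4.99 with shLATS1+2 and 5.62, 5.76 and 5.99 with ESR1 cDNA, with its shLATS1+2-labelled arrays at the dim end. The matricellular genes CCN2 and CCN1 were called lower as well, at -0.45 and -0.26. Against the control arrays, 15 of the 25 had a higher mean with shLATS1+2 and 19 of 25 with ESR1 cDNA, 2 counts that share the control arrays.

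Among 17 genes for estrogen receptors, co-regulators and partners, 4 were higher with the hairpins and none passed the limma test as lower (2 at an unadjusted p under 0.05). The called share was near the 19.4% of all genes, and the median was -0.027, or 0.065 without ESR1-cDNA array 1. TFAP2C, a luminal AP-2 factor that binds with the receptor, read 7.29, 7.20 and 7.16 in the shLATS1+2-labelled arrays, against 6.45, 6.02 and 6.10 in the ESR1-cDNA arrays. The pioneer factor FOXA1 read 8.89, 8.89 and 8.75 with shLATS1+2 and 8.12, 8.17 and 8.10 with ESR1 cDNA. Neither gene's groups overlapped. The receptor co-repressor NRIP1 rose by 0.58 ± 0.044 and the membrane estrogen receptor GPER1 by 0.25 ± 0.074. GPER1 lost its call in 3 settings (adjusted p = 0.12 with the 6 arrays alone, limma).

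The 28 estrogen response genes did not separate the groups in one direction, with 6 higher, 6 lower and a median of -0.034. IGFBP4, a binding protein of insulin-like growth factors, read 7.97, 8.17 and 7.89 in the shLATS1+2-labelled arrays, against 6.91, 7.20 and 6.80 in the ESR1-cDNA arrays. It was 2.06-fold higher with shLATS1+2, without overlap. The cadherin CELSR2 rose by 0.72 ± 0.11 and the lysosomal protease CTSD by 0.56 ± 0.083. The textbook estrogen targets PGR, GREB1, TFF1 and TFF3, named after their values had been seen, were not called. The members lower with the hairpins were CA12, STC2, MYC, CCND1, KRT13 and HSPB8. Leaving out ESR1-cDNA array 1 gave 8 higher and 4 lower.

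The glucocorticoid list, made of genes taken as induced by the receptor and of the receptor gene NR3C1 itself, had the largest median difference of the 25 lists. It was drawn up with earlier results of these data known and holds SCNN1G and ANGPTL4 from the largest falls, so its rank is only described. Of 19, 15 were lower with shLATS1+2, 2 were higher and 2 were not called, with a median of -0.88. Without ESR1-cDNA array 1 the calls were 2 higher and 14 lower. DUSP1, a phosphatase that turns off MAP kinases, read 9.96, 10.02 and 10.01 in the shLATS1+2-labelled arrays, against 11.99, 11.88 and 11.95 in the ESR1-cDNA arrays. The groups were almost 2 units apart, with a difference of -1.95 ± 0.041 (SE).

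TFCP2L1, an epithelial transcription factor, read 8.76, 8.67 and 8.26 with shLATS1+2 and 10.37, 9.94 and 9.98 with ESR1 cDNA, a 2.89-fold fall. SCNN1G and ANGPTL4, described above, belong to the same list. The other members called lower were TSC22D3, PER1, ZBTB16, KLF9, SGK1, ERRFI1, MT2A, MT1X, SCNN1A, SCNN1B and SERPINA3. The 2 members called higher were NR3C1, which is not one of the induced genes, at 0.60, and the transcription factor CEBPD, at 0.50. Against the control arrays, the list's median was -0.74 with shLATS1+2 and 0.018 with ESR1 cDNA, so by the median the ESR1-cDNA arrays sat near the control. Single members did not all do so, and 10 of the 19 had means above the control with ESR1 cDNA. DUSP1 differed from the control by 0.56 there, SCNN1G by 0.48 and ANGPTL4 by -0.17.

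Cholesterol synthesis genes moved the other way. Of 16, 13 were higher with shLATS1+2, none was called lower by limma (0 also at an unadjusted p under 0.05), and the median was 0.47. INSIG1, which holds back the sterol-sensing complex and is itself induced when sterols are low, read 9.92, 9.88 and 9.96 in the shLATS1+2-labelled arrays, against 8.21, 8.14 and 8.14 in the ESR1-cDNA arrays. It was 3.37-fold higher, with the arrays of a group close together. HMGCS1, an early enzyme of the pathway, read 10.85, 10.90 and 10.76 with shLATS1+2 and 9.60, 9.34 and 9.38 with ESR1 cDNA, a 2.63-fold rise. The mevalonate kinase gene MVK rose by 1.10 ± 0.10, with its ESR1-cDNA arrays spread over 7.73, 7.23 and 7.48. DHCR7, the last step to cholesterol, rose by 0.61 ± 0.073. The other 9 called members were MVD, IDI1, FDPS, SQLE, LSS, CYP51A1, MSMO1, NSDHL and the master regulator SREBF2. Against the control arrays the list's median was 0.34 with shLATS1+2 and -0.18 with ESR1 cDNA. Without ESR1-cDNA array 1, 13 higher and 1 lower were called.

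Interferon-induced genes were high in both groups, as in all 5 groups other than the control. Of 38 members, 37 had means above the control arrays with shLATS1+2 and 37 with ESR1 cDNA, by a median of 1.87 and 1.96. The medians above control were 1.74 in the shLATS1B arrays, 2.42 with YAP/TAZ plus ESR1 cDNA and 1.58 with YAP/TAZ cDNA, so the control arrays were the group apart. MX1 and EPSTI1, named after their values had been seen, stayed near the dim end. MX1 averaged 5.23 with shLATS1+2 and 5.17 with ESR1 cDNA, against 5.19 in the control arrays, and EPSTI1 averaged 4.65, 4.75 and 4.73 in these groups. Between the groups, 6 were higher with shLATS1+2 and 11 were lower, with a median of -0.092.

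MX2, an antiviral GTPase, read 6.52, 6.49 and 6.40 in the shLATS1+2-labelled arrays, against 7.89, 7.53 and 7.29 in the ESR1-cDNA arrays. IFIT2, an antiviral RNA-binding protein, read 8.83, 8.89 and 8.94 with shLATS1+2 and 8.13, 7.75 and 7.87 with ESR1 cDNA. The groups did not overlap for either gene, but the order was opposite. The chemokine CXCL10 rose by 0.95 ± 0.20 and the ISG15 ligase HERC5 by 0.87 ± 0.12, with ISG15 itself lower by this measure, at -0.75. Of 13 antigen presentation genes, 2 were higher and 1 lower, near the share of all genes. The 2 that were higher, ERAP1 and CALR, lost their calls in some settings. TAP2, a subunit of the peptide transporter, differed by -0.30 ± 0.060, but by -0.038 (adjusted p = 0.84, limma) with the median of its probe sets. B2M, the light chain of MHC class I, differed by -0.11 and was not called (adjusted p = 0.52, limma). It was called lower without ESR1-cDNA array 1, at -0.24 (adjusted p = 0.048, limma).

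**Figure D3:**
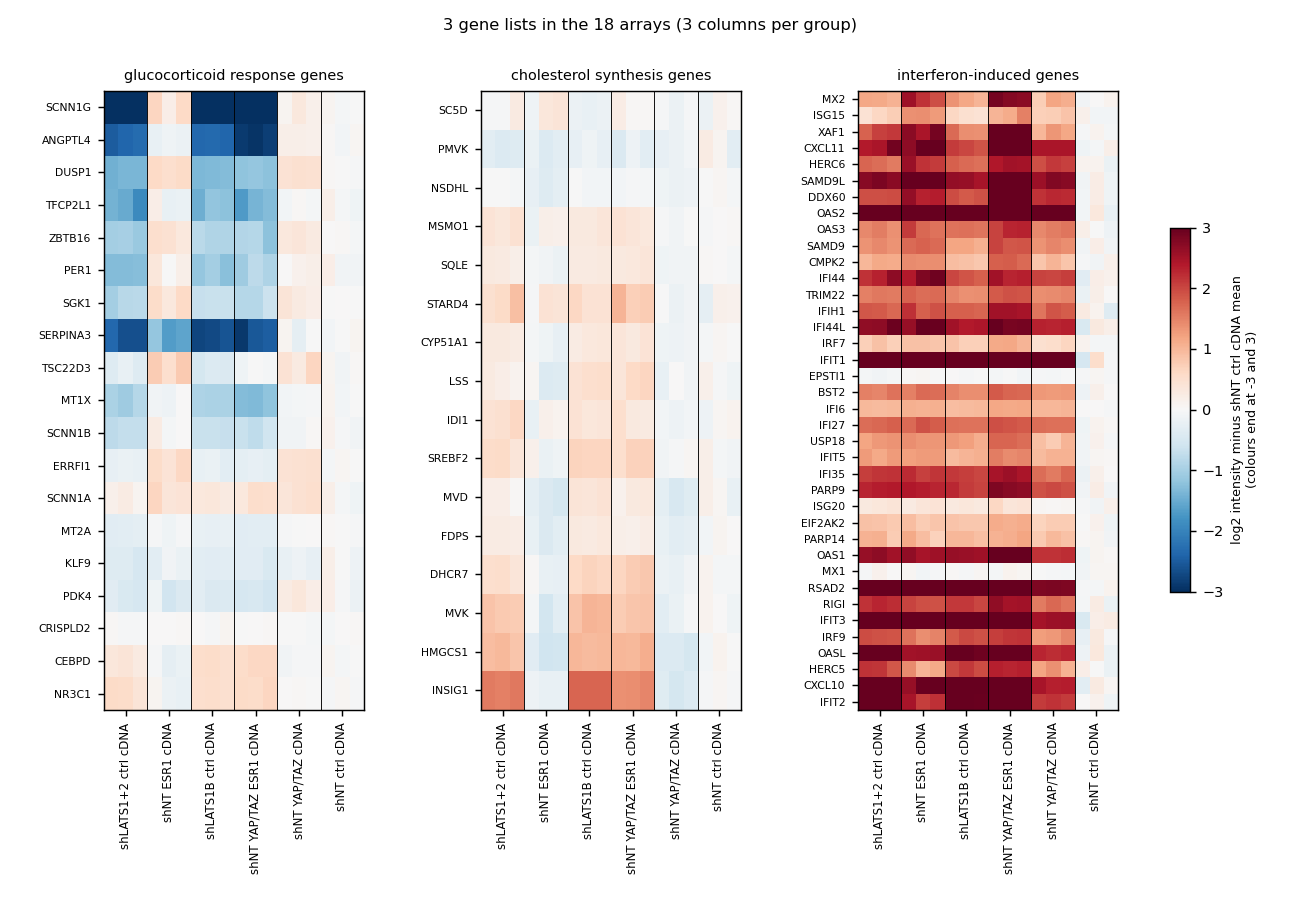
Log2 intensity minus the control mean for every member of 3 lists in the 18 arrays, 3 columns per group. The glucocorticoid response genes are low and the cholesterol synthesis genes high in the shLATS1+2-labelled arrays beside the ESR1-cDNA arrays, while the interferon-induced genes are above control in both, by medians of 1.87 and 1.96.

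Genes of EGF signalling were mostly higher with the hairpins. Of 22 ligands, receptors and ERK feedback genes, 13 rose and 4 fell, with a median of 0.28. The ERK phosphatase DUSP6 read 10.34, 10.34 and 10.25 in the shLATS1+2-labelled arrays, against 9.58, 9.33 and 9.28 in the ESR1-cDNA arrays, with no overlap and a difference of 0.91 ± 0.061. A second phosphatase, DUSP4, rose by 0.90 ± 0.074, and the early-response gene IER3 by 0.80 ± 0.046. The ligand EPGN (epigen) went against the list, at 8.98, 8.97 and 9.33 with shLATS1+2 and 10.36, 10.89 and 10.90 with ESR1 cDNA. The 3 other falls were EGFR, EGR1 and FOSL1, while the ligands EREG, HBEGF and TGFA rose. Without ESR1-cDNA array 1, 13 higher and 4 lower were called.

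Of 27 NF-kB and inflammatory cytokine genes, 12 rose and 4 fell. TNFAIP2 was the largest rise, and CCL20, SAA1 and SAA2 were the largest falls. CCL20 read 6.53, 6.68 and 7.13 in the shLATS1+2-labelled arrays, against 8.73, 9.31 and 9.40 in the ESR1-cDNA arrays, with its ESR1-cDNA arrays above the control mean of 7.49 and its shLATS1+2-labelled arrays below it. SAA2 was 3.27-fold lower, subject to the likeness of SAA1 and SAA2.

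Of 23 TGF-beta and BMP genes, 4 rose and 9 fell. The BMP-responsive genes ID2, ID3 and ID1 were all lower with shLATS1+2. ID3 read 8.87, 8.91 and 8.92 in the shLATS1+2-labelled arrays, against 9.87, 9.89 and 9.92 in the ESR1-cDNA arrays, with almost no spread within a group. SMAD3, a signal transducer of TGF-beta, rose by 0.72 ± 0.075, and the co-receptor TGFBR3 by 0.61 ± 0.11. The list's median was -0.027.

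Genes of epithelial identity were split. Of 16 basal and myoepithelial genes, 3 rose and 9 fell, with a median of -0.29. The actin-binding protein TAGLN read 6.43, 6.12 and 6.45 in the shLATS1+2-labelled arrays, against 8.14, 8.06 and 7.98 in the ESR1-cDNA arrays, a 3.31-fold fall. KRT14, a basal keratin, read 8.03, 8.07 and 8.09 with shLATS1+2 and 9.99, 9.55 and 9.41 with ESR1 cDNA, a 3.01-fold fall, and the control mean of 10.43 lay above both groups. The peptidase MME differed by -1.09 ± 0.12. SPARC, a matrix-binding protein, went the other way, at 10.98, 10.97 and 10.92 with shLATS1+2 and 9.65, 9.68 and 9.69 with ESR1 cDNA.

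Of 24 luminal genes, 9 rose and 4 fell, with a median of 0.0049. The luminal keratin KRT8 read 12.05, 12.06 and 11.83 in the shLATS1+2-labelled arrays, against 11.42, 10.75 and 10.90 in the ESR1-cDNA arrays, without overlap. MUC1, an apical mucin of luminal cells, read 8.55, 8.40 and 8.32 with shLATS1+2 and 10.61, 9.98 and 10.01 with ESR1 cDNA, a 3.42-fold fall. CD24, a surface glycoprotein whose gene has near-identical copies and whose value is therefore uncertain, differed by -1.47 ± 0.060. ELF3, EPCAM and KRT18 rose with KRT8, while KRT7 and SLPI fell with MUC1.

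Of 28 epidermal differentiation genes, none rose by limma (1 at an unadjusted p under 0.05) and 9 fell, with a median of -0.12. TGM1, which crosslinks the cornified envelope, read 6.68, 6.93 and 6.97 in the shLATS1+2-labelled arrays, against 9.05, 8.62 and 8.72 in the ESR1-cDNA arrays. The envelope protein SPRR1B differed by -1.50 ± 0.12, the transcription factor GRHL3 by -1.11 ± 0.12 and the calcium-binding protein S100A8 by -1.15 ± 0.23. The groups did not overlap for any of these 4 genes, as for 27.2% of all genes.

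Of 27 mesenchymal and matrix genes, 3 rose and 9 fell, beside 11.4% and 8.04% of all genes. Besides FN1, SNAI2, a repressor of epithelial genes, read 10.40, 10.60 and 10.58 in the shLATS1+2-labelled arrays, against 12.03, 12.14 and 12.18 in the ESR1-cDNA arrays, and THBS1, the matrix protein thrombospondin 1, read 10.80, 10.87 and 10.65 with shLATS1+2 and 12.28, 12.29 and 12.12 with ESR1 cDNA. Both were lower with the hairpins in every array, by 3.01-fold and 2.75-fold. Of 21 epithelial junction genes, 5 rose and 4 fell (8 and 3 without ESR1-cDNA array 1). The desmosomal cadherin DSG3 differed by -1.13 ± 0.074, while TJP3 (1.02 ± 0.11), the beta-catenin gene CTNNB1 (0.53 ± 0.048) and CLDN4 (0.44 ± 0.067) rose.

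Growth and housekeeping lists were closer. Of 29 mitosis genes, 3 rose and 1 fell, and of 26 DNA replication genes, 2 rose and 1 fell, below the 19.4% of all genes in both lists. Without ESR1-cDNA array 1, where 4724 of all 18404 genes passed, the mitosis calls were 7 higher and 0 lower. The replication calls in that fit were 6 higher and 1 lower. Both lists lay under the control arrays, with medians of -0.40 with shLATS1+2 and -0.48 with ESR1 cDNA for mitosis. The kinase AURKB rose by 0.35 ± 0.061, NUSAP1 by 0.36 ± 0.049 and TOP2A by 0.36 ± 0.073, while the mitotic motor CENPE differed by -0.43 ± 0.13. The CENPE call was lost in 8 settings, at -0.26 and an adjusted p of 0.12 (limma) without ESR1-cDNA array 1, and that of TOP2A with the 6 arrays alone. Of 19 ribosomal protein genes, RPL11 alone was called, at 0.21 ± 0.050 (1 higher and 2 lower were called without ESR1-cDNA array 1), and the abundant RPL8 differed by 0.036 ± 0.041, which did not pass.

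Stress lists were mixed. Of 18 p53 target genes, 2 rose and 5 fell. GDF15, a stress-induced cytokine, read 11.67, 11.63 and 11.55 in the shLATS1+2-labelled arrays, against 10.26, 10.17 and 10.19 in the ESR1-cDNA arrays, a 2.66-fold rise. TP53INP1, TP53I3 and TIGAR were lower, at -0.84 ± 0.085, -0.73 ± 0.072 and -0.65 ± 0.077. Of 21 unfolded protein and amino acid stress genes, 3 rose and 7 fell. CHAC1, a glutathione-degrading enzyme, differed by -0.97 ± 0.12, and the serine synthesis enzyme PHGDH rose by 0.65 ± 0.11. Of 21 hypoxia and glycolysis genes, 6 rose and 3 fell. The glucose transporter SLC2A1 rose by 0.84 ± 0.066 and the prolyl hydroxylase EGLN3 by 0.73 ± 0.073, while NDRG1 (-0.77 ± 0.096) and the peptide hormone gene ADM (-0.72 ± 0.096) fell.

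Markers of other cell types were read beside these lists. Of 22 leukocyte and endothelial markers, 3 rose and 3 fell, 6 of 22 beside the 19.4% of all genes. CD14 read 10.80, 10.69 and 10.75 in the shLATS1+2-labelled arrays, against 9.81, 9.26 and 9.54 in the ESR1-cDNA arrays, and CD68 rose by 0.72 ± 0.059 and PECAM1 by 1.01 ± 0.077. The 3 that fell were ENG (-0.72 ± 0.094), CSF1R (-0.26) and TEK (-0.17). Over the 10 defining markers of these cells, the summed log2 intensity ran from 61.5 to 61.8 with shLATS1+2 and from 58.6 to 58.9 with ESR1 cDNA. Of those 10, 6 (PTPRC, CD3E, MS4A1, CDH5, KDR and VWF) had both means under 5.21, the 30th percentile of gene means. Over 10 defining fibroblast markers the sums were 50.4 to 50.7 with shLATS1+2 and 52.2 to 53 with ESR1 cDNA, with 6 of 10 under that level and FAP the one called, at least 1.91-fold lower because its shLATS1+2-labelled arrays were at the dim end. MFAP5, in the longer fibroblast list, was at least 2.51-fold lower for the same reason. The 6 measured markers of mammary epithelium summed to 65.9 to 66.8 with shLATS1+2 and 65.5 to 67.6 with ESR1 cDNA. KRT17 and TP63, also listed, were not among those measured. The like sums hide opposite changes, since EPCAM (0.63), KRT8 (0.96) and KRT18 (0.72) rose while KRT5 (-0.33) and KRT14 (-1.59) fell. All 6 had means above 5.21 in both groups, so epithelial messages were present in each. The part of other cells in the results was not tested.

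**Figure D4:**
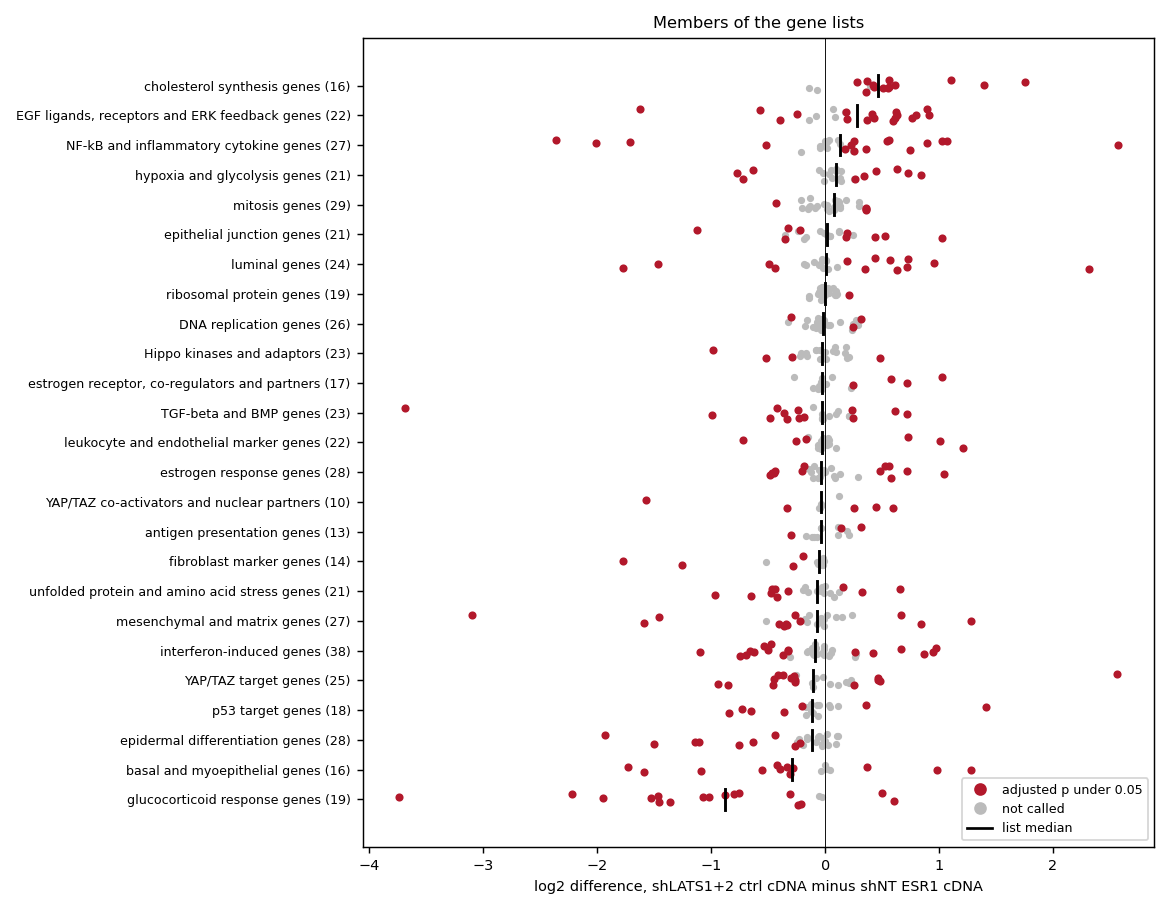
Log2 difference, shLATS1+2-labelled minus ESR1-cDNA arrays, for every measured member of 25 gene lists, with called members in red and the list median as a bar. Glucocorticoid response genes lie lowest, at a median of -0.88, and cholesterol synthesis genes highest, at 0.47.

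The remaining groups were set on the line between the 2 groups for the 3571 called genes. The mean of the shLATS1B arrays, labelled with a LATS1 hairpin only, was nearer to shLATS1+2 than to ESR1 cDNA for 89.5% of them. The YAP/TAZ plus ESR1 cDNA mean, from cells with no LATS hairpin, was nearer to shLATS1+2 for 66.2%. The YAP/TAZ cDNA mean was nearer to shLATS1+2 for 16.4%, and the control mean for 34.2%. In the YAP/TAZ-cDNA arrays YAP1 averaged 10.79 and WWTR1 9.44, against 10.84 and 9.57 in the control arrays. A raised message of either gene was therefore not seen there by these probe sets. In the arrays with YAP/TAZ plus ESR1 cDNA, YAP1 averaged 10.88 and WWTR1 9.99. Among the 652 genes that reached 1.5-fold, the shares were 96.5%, 72.5%, 5.37% and 23.8% in the same order. Cells given ESR1 cDNA alone and cells given it with YAP/TAZ cDNA therefore lay on different sides for most of these genes. SCNN1G shows the order at one gene, with means of 5.46 for shLATS1+2, 5.30 for shLATS1B and 5.29 for both cDNAs, against 9.19 for ESR1 cDNA, 8.91 for YAP/TAZ cDNA and 8.72 for the control. CLIC2 shows an exception, with means of 5.22 for shLATS1+2 and 7.54 for ESR1 cDNA, and 7.38 for both cDNAs.

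The control mean lay between the 2 groups for 1885 of the 3571 called genes. It lay beyond the ESR1-cDNA mean for 1220 and beyond the shLATS1+2 mean for 466. For the 1220, the ESR1-cDNA arrays were on the shLATS1+2 side of the control, as KRT14 shows, with means of 8.06 for shLATS1+2, 9.65 for ESR1 cDNA and 10.43 for the control. ID2 shows the first pattern, at 5.46 for shLATS1+2, 9.15 for ESR1 cDNA and 7.24 for the control.

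A comparison that shares no array with this one, shLATS1B against YAP/TAZ cDNA, called 3462 genes (18.8%), of which 1967 were higher and 1495 lower. Both comparisons called 2423 genes, which is 67.9% of the first list and 70.0% of the second. Of the 2423, 2417 went the same way. Over all 18404 genes the differences correlated at r = 0.881 (Spearman 0.681), a description across genes that share arrays and are not independent. All 30 of the genes with the largest rises and falls had the same sign, as had 3458 of the 3571 called genes (96.8%). CYP24A1 was at least 15.2-fold higher there, with its YAP/TAZ-cDNA arrays at the dim end, while SCNN1G differed by -3.61 ± 0.096 and FN1 by -3.34 ± 0.091. Both comparisons set a hairpin group with control cDNA against a cDNA group with the non-targeting hairpin, and both run along the first principal component.

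**Figure D5:**
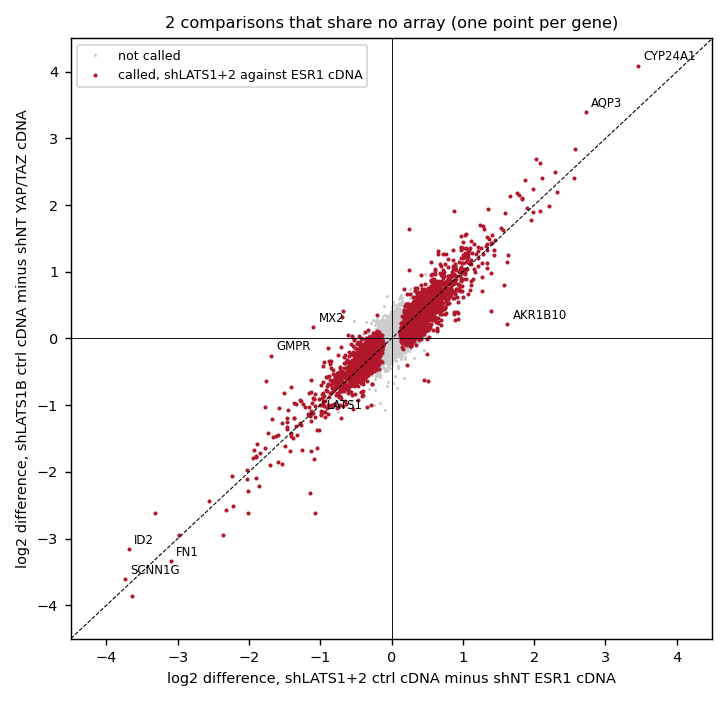
Log2 difference of each of 18404 genes in the comparison of shLATS1+2 with ESR1 cDNA (x) and in the comparison of shLATS1B with YAP/TAZ cDNA (y), which share no array. Genes called in the first comparison are red, the dashed line marks equal differences, and 2417 of the 2423 genes called in both went the same way.

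The 6 genes called in opposite directions were SLFN13, NRG4, GSTM4, TNIP3, TMOD2 and IL2RG, named because of that result. SLFN13, of the interferon-linked Schlafen family, differed by -0.69 with shLATS1+2 against ESR1 cDNA and by 0.41 with shLATS1B against YAP/TAZ cDNA. NRG4, an ERBB4 ligand, differed by 0.51 in the first comparison and by -0.64 in the second.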

How the data were processed

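The authors deposited log2 intensities for 32321 probe sets on 18 arrays. Per the submitters' processing notes they used the R package affy. Its settings, background correction, normalization and summary method were not given in the sources used here. The values were used as deposited, since medians of the arrays spanned 5.494 to 5.619. Gene symbols came from the platform annotation of the probe sets (19158 with 1 symbol, 1388 with several, 11775 with none), of which 19128 matched RefSeq (GRCh38.p14). The brightest probe set by mean represented each of 18404 genes, a choice made for 637 genes. No gene was left out as dim. A gene's group was called dim under the 30th percentile of gene means, and a fold against it was given as a lower bound.

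A group-mean model over 18 arrays was fitted with limma 3.58.1 in R 4.3.3 (two-sided, Benjamini-Hochberg over all genes), after the fit had been tested on simulated data. Differences are shLATS1+2 minus ESR1 cDNA, and the SE is that of the fit. Named were the 5 targeted genes, the 15 genes that rose most and the 15 that fell most, out of called genes with groups that did not overlap, and up to 4 members per list. The members and lists were chosen with earlier results of these data known. Alternatives covered arrays in the fit, scaling, probe-set choice, dim genes, variance trend, array weights, replicate block and arrays left out.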

Additional observations from a re-analysis of the deposited data

How the results depend on the processing

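The count of 3571 genes lay between 2849 and 4724 when each of the 6 arrays was left out in turn, with the highest value without ESR1-cDNA array 1, and 2314 genes were called in every such fit. It fell to 1922 with the 6 arrays alone, a fit with fewer residual degrees of freedom, and to 652 with a minimum of 1.5-fold. It was 5124 without ESR1-cDNA array 1 and shLATS1+2-labelled array 3 together, an alternative chosen after seeing the data. With each gene's group mean subtracted, same-numbered arrays of the 2 groups correlated at 0.574, -0.101 and 0.631. The numbers were thus not shown to pair the arrays, and the replicate block gave 3397 calls. The share of higher calls was 58.6%, and 64.2% with arrays centred on their medians. Of 114 named genes that were called, 99 kept the call in each of the 15 settings that held them. The other 15 lost it in at least 1, among them YAP1, GPER1, TAOK2, TAP2, ERAP1, CALR, TOP2A and CENPE. A gene dropped as dim in a setting was not counted there. B2M and RFC4, not called, were called in some settings. No named gene reversed. Of 375 list medians under alternatives, 359 moved by less than their spread. Medians near 0 changed sign in some settings for Hippo kinases, nuclear partners of YAP/TAZ, estrogen receptor partners, antigen presentation, luminal, junction, DNA replication and ribosomal genes. The number of arrays limits the precision, and signals near the dim end limit folds.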

Other observations

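The arrays with YAP/TAZ plus ESR1 cDNA were usually nearer to the shLATS1+2-labelled arrays, but of 185 called genes with at least a 2-fold difference, 28 were nearer to the ESR1-cDNA arrays there. Among them, CCDC80, SARAF and IL24 were singled out after their values had been seen. CCDC80, a matrix protein, averaged 7.01 with shLATS1+2 and 8.68 with ESR1 cDNA, and 8.57 with both cDNAs. SARAF, a regulator of calcium entry, averaged 8.33 with shLATS1+2 and 9.66 with ESR1 cDNA, and 9.69 with both cDNAs. The cytokine gene IL24 averaged 6.27 with shLATS1+2 and 7.69 with ESR1 cDNA, against 5.75 in the control arrays. The shLATS1B arrays were nearer to the ESR1-cDNA arrays for only 4 of the 185 genes.

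AKR1B10 and GPX2, enzymes that detoxify aldehydes and peroxides, were also chosen after their values had been seen. AKR1B10 averaged 7.00 with shLATS1+2 and 5.38 with ESR1 cDNA, and 8.36 with both cDNAs. GPX2 averaged 7.06 with shLATS1+2 and 5.48 with ESR1 cDNA, and 8.58 with both cDNAs. For both genes the arrays given both cDNAs were therefore the highest of these 3 groups, although they share the ESR1 plasmid with the lowest.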
